A study of Mus musculus with 9 samples.

Results

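The subunits of the mitochondrial respiratory chain and of ATP synthase that are encoded in the nucleus were followed across 3 kinds of mouse ovary. Members were taken by symbol: every probe with a single gene symbol that begins with Ndufa, Ndufb, Ndufc, Ndufs or Ndufv and a number, with Uqcr, with Cox4 to Cox8 or with Atp5, together with Sdha, Sdhb, Sdhc and Sdhd. The rule took 118 of the 45281 probes on the array, which carry 78 of its 19057 gene symbols. Of these symbols, 48 have 1 probe and 30 have several, at most 4. By symbol, complex I holds 51 probes, complex II 7, complex III 10, complex IV 21 and complex V 29. A symbol is not always a subunit of the complex it is named for. Ndufa4 is now counted as a subunit of complex IV, Cox7a2l is a factor that joins complexes III and IV, and the Ndufs5-ps probe carries the symbol of a pseudogene.

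Transcripts were measured from total RNA on Illumina BeadChips in wild-type ovaries (WT), in ovaries of a model of premature ovarian failure (POF), and in those of mice that had received transplanted spermatogonial stem cells, the stem cells of the testis (SSCTR). Per the labels, all 3 groups are of strain C57BL/6. The labels do not give the ages, how ovarian failure was brought about, when tissue was taken after the transplant, or whether the SSCTR mice had ovarian failure before it. The labels number 3 replicates in a group, but the replicate 1 columns are computed from replicates 2 and 3, so each group has 2 arrays here. Nothing in the labels says that these are separate animals, so every p-value measures only the spread between these samples, which may be technical.

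The respiratory chain sits in the inner mitochondrial membrane. Complex I takes electrons from NADH and complex II from succinate, coenzyme Q carries them to complex III, cytochrome c carries them on to complex IV, and complex IV passes them to oxygen. Complexes I, III and IV pump protons, and complex V, the ATP synthase, uses the proton gradient to make ATP. A few core subunits are encoded in the mitochondrial DNA and all others in the nucleus, and oocytes, granulosa cells and steroid-making cells of the ovary depend on this machinery for ATP and for the mitochondrial steps of steroid synthesis. Several complex IV subunits exist as isoforms, of which Cox6a2, Cox7a1 and Cox8b are best known from striated muscle and brown fat, while Cox6b2, Cox7b2 and Cox8c are best known from testis.

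On each array, 16040 to 18041 probes lay above background, which means a detection p under 0.05. The ovarian origin was visible in the granulosa cell genes Fshr, Inha and Foxl2 and the oocyte genes Gdf9, Zp3, Nobox and Ddx4, although the Amh probe was above background on no array. The summed level of the oocyte markers, as linear normalized intensity over 5 probes, was 3482 to 3781 in WT, 2138 to 2338 in SSCTR and 936.8 to 1189 in POF. Over 10 macrophage marker probes it was 2739 to 3684 in WT, 2623 to 2644 in SSCTR and 6150 to 6780 in POF. Over 3 oviduct marker probes it was 66.7 to 77.8, 70.2 to 84.2 and 2551 to 2932, and over 3 surface epithelium probes 226.3 to 245.3, 175 to 188.9 and 1091 to 1312, in the same order. Over the 6 probes of steroid-making cells (Star, Cyp11a1, Cyp17a1 and Hsd3b1) it was 2556 to 2613 in WT, 2462 to 2618 in SSCTR and 1631 to 1835 in POF. Of the 6, 4 were lower and 2 higher in POF than in WT, and those 2 did not overlap WT. Called were 2 lower in POF than in WT, beside 3.84% of all tested probes. In SSCTR 1 was called higher than in POF and 1 higher than in WT, beside 4.12% and 1.29%. Over 5 granulosa cell probes it was 15710 to 16540 in WT, 14290 to 15100 in SSCTR and 15170 to 16480 in POF. WT and POF thus overlapped, and SSCTR lay below both. Of the 5 probes, 1 was nevertheless called higher in SSCTR than in POF and 0 lower, beside 4.12% and 5.98% of all tested probes. The groups thus differ in markers of several cell types, and their part in the results below was not tested. In bulk RNA, fewer cells of a type and less RNA per cell cannot be told apart.

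One gene went against the C57BL/6 label on 4 arrays. C57BL/6 mice are known to lack H2-Ea transcript because of a promoter deletion, yet the H2-Ea probe read 5.94 and 7.61 in WT and 7.26 and 7.33 in SSCTR, above background on 4 of 4 arrays, against 4.33 and 4.29 in POF, above background on 0 of 2. The part of a strain difference in any comparison with POF was not tested.

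Most members were measurable in the ovary. Of the 118 probes, 83 were above background on all 6 arrays, 17 on 2 to 5, 3 on 1 and 15 on none. The 100 probes above background on at least 2 arrays, from 72 genes, entered the test, and 62 genes had a probe above background on every array. The 6 genes without a probe that entered were Ndufs1, Uqcrfs1, Cox7b2, Cox8c, Atp5k and Atp5md. Ndufs1 encodes the largest iron-sulphur subunit of complex I and Uqcrfs1 the Rieske iron-sulphur protein of complex III. The Ndufs1 probe read 4.38 and 4.29 in WT, 4.58 and 4.29 in SSCTR, and 4.39 and 4.44 in POF, on the normalized log2 intensity scale used throughout. Such values, like those of both Uqcrfs1 probes, were not above background on any array and give no level.

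Taken over the list, subunit transcripts lay slightly lower in POF ovaries than in WT and slightly higher in SSCTR than in POF, while SSCTR and WT lay close together. The median change of the 83 probes above background on all arrays was -0.14 log2 for POF against WT, beside -0.05 for all 13242 probes measured on all arrays. For SSCTR against POF it was 0.15 beside 0.06, and for SSCTR against WT it was -0.004 beside -0.004. Over the 100 tested probes the medians were -0.14, 0.16 and -0.002, beside -0.03, 0.03 and -0.02 over all 19394 tested probes. The median level of these 100 probes on an array had an SD of 0.18 between replicates, pooled over groups. That is larger in size than any of the medians over the 100 tested probes. A median of levels is another measure than a median of changes, however, and no such SD was computed for the 83 probes. The POF arrays enter both the first and the second comparison, so these 2 shifts are not separate observations. The array medians of the 83 probes were 11.02 and 11.12 in WT, 11.16 and 11.24 in SSCTR, and 11.07 and 10.95 in POF. The POF arrays therefore overlap the WT arrays in this median and lie below both SSCTR arrays.

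**Figure D1:**
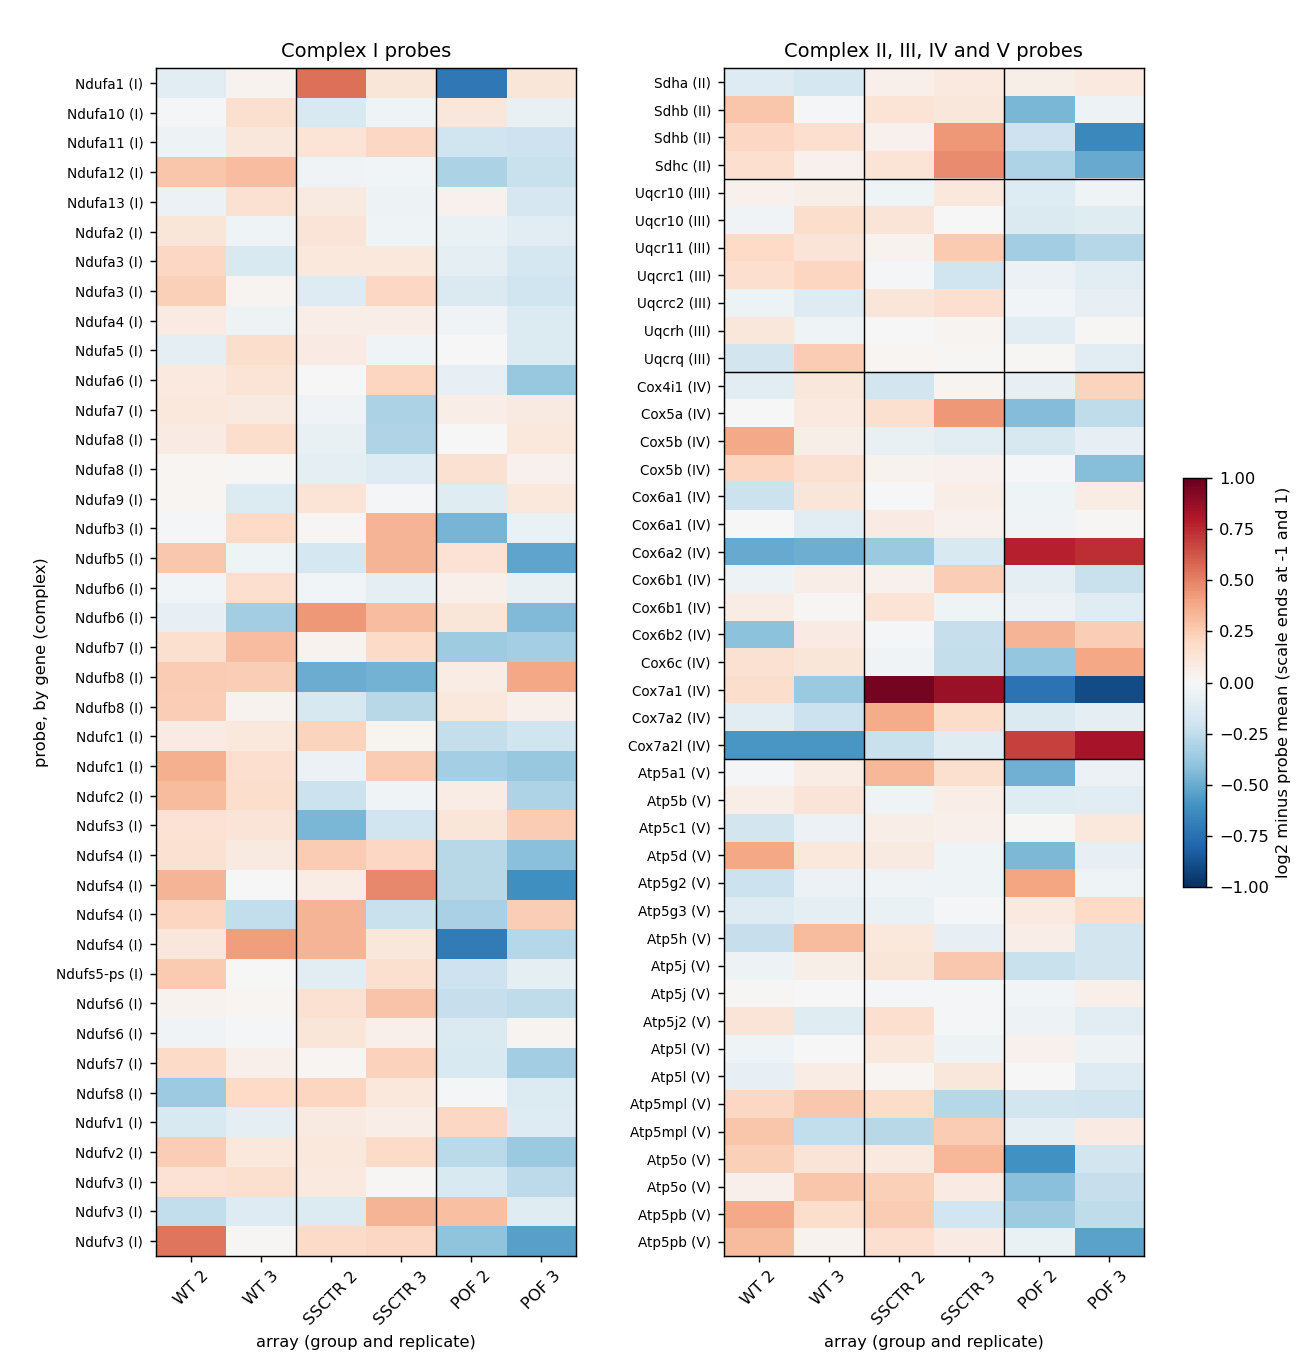
Normalized log2 intensity of the 83 member probes above background on all 6 arrays, each as its difference from the probe's own mean, with columns for arrays and rows for probes ordered by complex. In POF most rows are blue, 42 of 83 (50.6%) lying below both WT arrays, beside 31.8% of all probes above background on all arrays. Cox6a2 and Cox7a2l are red in POF and Cox7a1 is red in SSCTR.

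Few single probes passed the test. In POF against WT, 3 of the 100 tested probes passed a Benjamini-Hochberg adjusted p of 0.05 in limma, all of them higher in POF, beside 9.52% of all tested probes (5.68% higher and 3.84% lower). In SSCTR against POF, 4 passed, 1 higher and 3 lower in SSCTR, beside 10.1% (4.12% and 5.98%). In SSCTR against WT, 2 passed, both higher in SSCTR, beside 2.44% (1.29% higher and 1.15% lower). None of the 100 was called lower in POF than in WT, although 18 had an unadjusted p under 0.05 in that direction and 4 in the other. Over all tested probes, 12.3% were lower and 12% higher in POF at that level.

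The count of lower calls depends on how the spread is modelled. With limma's variance prior following the mean level, a setting under which bright probes get a smaller prior spread, 20 probes passed in POF against WT, 3 higher and 17 lower, beside 7.3% and 6.23% of all tested probes. In SSCTR against POF, 17 passed, 14 higher and 3 lower, beside 6.17% and 7.45%. In SSCTR against WT, 3 passed, all higher, beside 2.43%. The 17 lower probes came from 13 genes, named here after their values were seen: Ndufa12, Ndufc1, Ndufs4, Ndufv2, Ndufv3, Sdhb, Sdhc, Uqcr11, Cox7a1, Atp5d, Atp5mpl, Atp5o and Atp5pb. The 14 higher probes in SSCTR against POF came from 12 genes: Ndufa1, Ndufa11, Ndufc1, Ndufs4, Ndufv2, Ndufv3, Sdhb, Sdhc, Uqcr11, Cox5a, Cox7a1 and Atp5o. By complex the 17 lower probes were 8 of 47 tested probes in I, 2 of 6 in II, 1 of 7 in III, 1 of 17 in IV and 5 of 23 in V. Without background correction, POF against WT gave 2 higher and 17 lower members, beside 7.31% and 6.41% of all tested probes, and with an offset of 50 in place of 16 it gave 3 and 12, beside 7.07% and 6.17%.

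**Figure D2:**
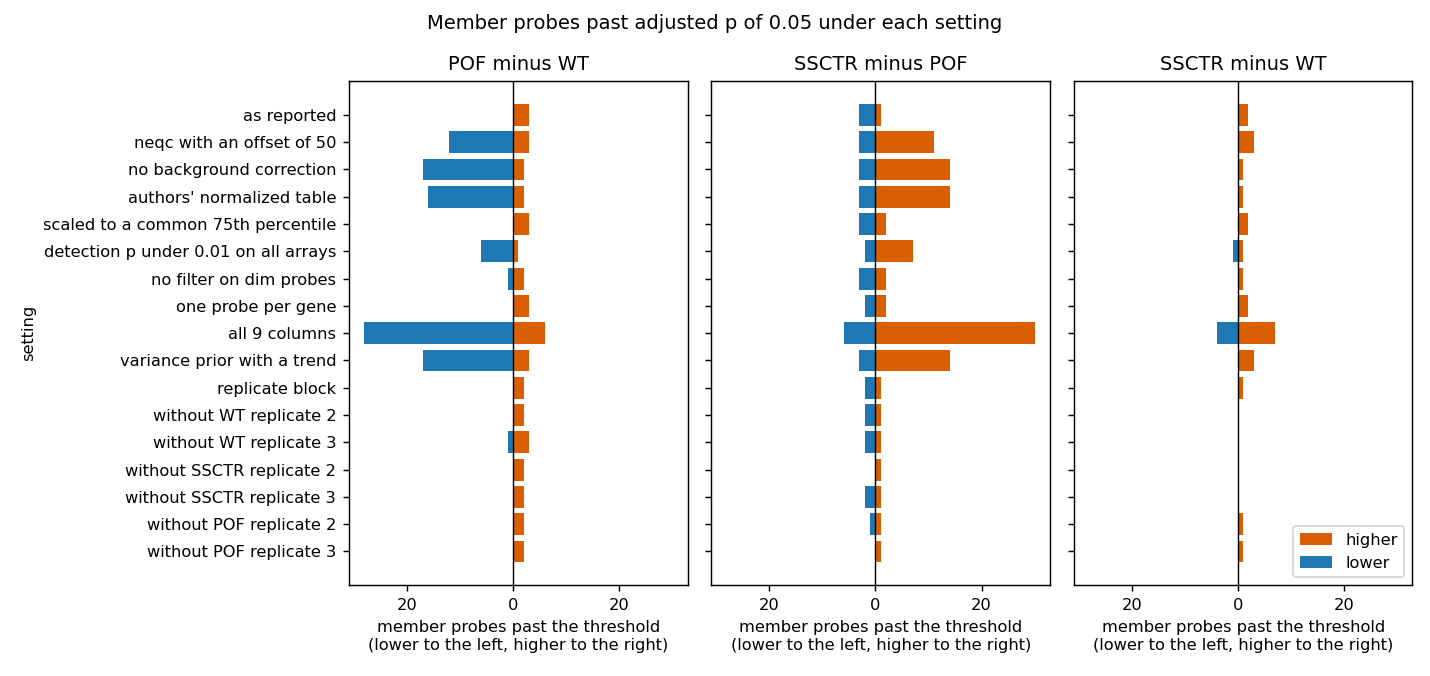
Number of member probes past an adjusted p of 0.05 (horizontal axis) under each setting (rows), with probes lower in the first group drawn to the left and higher to the right. As reported, POF minus WT has 3 higher and 0 lower, whereas the trended variance prior gives 3 higher and 17 lower.

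The separation of the arrays can be described without a variance model. Among the 83 probes above background on all arrays, 42 (50.6%) had both POF arrays below both WT arrays and 9 (10.8%) had both above, beside 31.8% and 24.8% of all such probes. Between SSCTR and POF, 47 (56.6%) lay wholly higher in SSCTR and 10 (12%) wholly lower, beside 32.3% and 24.8%. Between SSCTR and WT, 18 (21.7%) lay wholly lower and 20 (24.1%) wholly higher, beside 24.9% and 24.6%. Probes of 1 gene are not independent of each other. Among the 18 genes with several probes above background on all arrays, all probes were lower in POF than in WT in 12 genes, all were higher in 1, Cox6a1, and the signs differed in 5. No such count was made over all genes of the array.

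Complexes I, II, III and V had negative medians in POF against WT, and complex IV lay near 0. The median change was -0.20 for the 40 complex I probes above background on all arrays, -0.45 for the 4 of complex II, -0.13 for the 7 of complex III, -0.05 for the 14 of complex IV and -0.15 for the 18 of complex V. In complex I, 34 of 40 probes (85%) were below 0, and in complex IV 7 of 14 (50%), beside 55.2% of all probes above background on all arrays. In SSCTR against POF the medians were 0.23, 0.52, 0.12, 0.05 and 0.13 in the same order. In SSCTR against WT they lay between -0.02 and 0.13. The complex IV median in POF against WT ran from -0.13 to 0.07 over the alternatives, while the other 4 complexes kept a negative median in POF against WT and all 5 a positive one in SSCTR against POF. Without WT replicate 2, the medians in POF against WT moved to -0.30 in complex III, -0.10 in complex IV and -0.25 in complex V. With all 9 columns complex III was at -0.21, and with 1 probe per gene complex V was at -0.10. Without SSCTR replicate 3, those in SSCTR against POF moved to 0.07 in complex III and 0.20 in complex V. Without POF replicate 2 and without POF replicate 3, complex IV moved to 0.07 and -0.09 in the first comparison and to 0.02 and 0.09 in the second. No difference between complexes was tested.

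**Figure D3:**
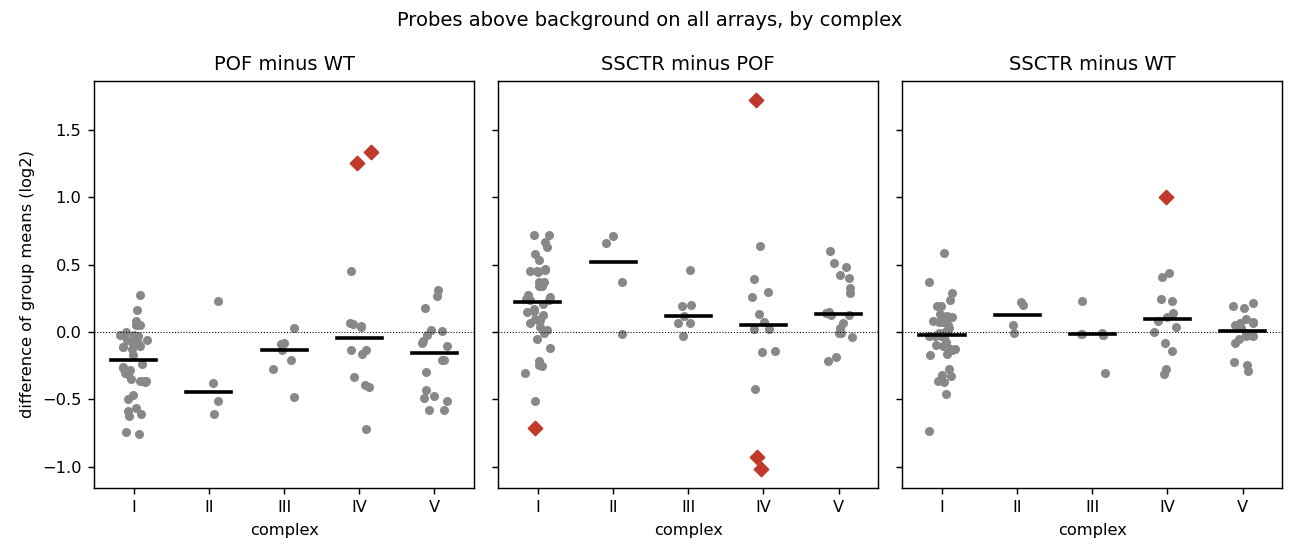
Difference of group means in log2 (vertical axis) for each member probe above background on all 6 arrays, by complex (horizontal axis), with bars at the median and red diamonds for probes past an adjusted p of 0.05. The complex I median lies at -0.20 in POF minus WT and at 0.23 in SSCTR minus POF, and all red diamonds but 1 belong to complex IV.

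Complex IV, cytochrome c oxidase, held the members with the largest changes in POF against WT and in SSCTR against POF. Of its 17 tested probes, 3 passed in at least 1 comparison: Cox7a2l and Cox6a2 were higher in POF, and Cox7a1 was higher in SSCTR. In POF against WT 2 passed, both higher, beside 5.68% of all tested probes. In SSCTR against POF 1 was higher and 2 lower, beside 4.12% and 5.98%. In SSCTR against WT 1 was higher, beside 1.29%. Cox7a2l encodes a relative of the Cox7a subunits that joins complex III to complex IV in supercomplexes. It read 9.02 and 9.02 in WT, 9.39 and 9.49 in SSCTR, and 10.29 and 10.43 in POF, so the 3 groups did not overlap and POF was highest. It was 2.53-fold higher in POF than in WT (log2 1.34, SE 0.17, adjusted p = 0.00203, limma, n = 2 arrays a group) and 1.90-fold lower in SSCTR than in POF (log2 -0.93, SE 0.17, adjusted p = 0.0104, limma). The change of 0.41 from WT to SSCTR did not pass (adjusted p = 0.285, limma). The call in POF against WT held under all 16 alternatives, whereas that in SSCTR against POF was lost without SSCTR replicate 2 (limma's adjusted p = 0.0597) and without POF replicate 3 (0.0805).

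The C57BL/6 allele of Cox7a2l is known to encode a shorter protein than that of many other strains. Cox7a2l lies on chromosome 17, as does H2-Ea, whose signal set POF apart from WT and SSCTR above. The members Ndufa7, Ndufa11, Ndufb10, Ndufv2 and Ndufv3 lie on that chromosome too. Most of their probes were lower in POF than in WT, as were 75 of all 100 tested member probes. Whether a strain difference bears on Cox7a2l was not tested.

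Cox6a2, the isoform of subunit VIa best known from heart and skeletal muscle, followed the same order. It read 4.81 and 4.82 in WT, 4.94 and 5.16 in SSCTR, and 6.08 and 6.05 in POF, near the lower end of the scale in all groups but above background on all 6 arrays. Both POF arrays lay above the other 4. The difference was 2.38-fold between POF and WT (log2 1.25, SE 0.18, adjusted p = 0.00303, limma) and 2.03-fold lower in SSCTR than in POF (log2 -1.02, SE 0.18, adjusted p = 0.00717, limma). Without background correction the change from WT to POF was 0.45 and still passed (adjusted p = 0.00887, limma). The change between POF and SSCTR was then -0.38 and passed (adjusted p = 0.0217, limma). As reported, the call between SSCTR and POF was lost without SSCTR replicate 2, POF replicate 2 or POF replicate 3, with adjusted p between 0.0506 and 0.0531. The 2 probes of the widely expressed isoform Cox6a1 changed by 0.06 (SE 0.19) and 0.04 (SE 0.17) from WT to POF and did not pass.

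Cox7a1, the muscle and brown fat isoform of subunit VIIa, was highest in SSCTR. It read 8.90 and 8.35 in WT, 9.68 and 9.58 in SSCTR, and 7.98 and 7.83 in POF, and no 2 groups overlapped. SSCTR exceeded POF 3.31-fold (log2 1.73, SE 0.22, adjusted p = 0.00134, limma), a call that held under all 16 alternatives. SSCTR exceeded WT 2.01-fold (log2 1.00, SE 0.22, adjusted p = 0.0488, limma), but this call was lost without any 1 of the 6 arrays, with adjusted p from 0.0604 to 0.222. The difference of -0.72 (SE 0.22) between POF and WT did not pass (adjusted p = 0.0718, limma). The probe of the widely expressed isoform Cox7a2 read 5.67 and 5.56 in WT, 6.15 and 5.96 in SSCTR, and 5.63 and 5.69 in POF. It lay near the lower end of the scale, though above background on all 6 arrays. None of its changes passed the test, and a probe this dim is a weak comparator for Cox7a1.

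Markers of the tissues for which these isoforms are known were at or near background. The muscle markers Ckm, Acta1 and Myh4 were above background on no array, and of the 5 muscle genes 1, Mylpf, had a probe that entered. The summed level of the muscle list over 3 probes was 74.3 to 74.5 in WT, 74.5 to 94.1 in SSCTR and 69.9 to 72.3 in POF. Neither heart gene, Myh6 or Nppa, had a probe that entered. The heart sum, over 1 probe, was 20.3 to 25.3 in WT, 21.2 to 21.3 in SSCTR and 20.8 to 36.6 in POF. Ucp1, the defining gene of brown fat, was on no array above background, and the brown fat sum, from the Cidea probe alone, was 23.4 to 39.2, 30.4 to 33.8 and 32.7 to 35.2. Of the 3 white fat genes, Fabp4 and Plin1 were above background on no array. Adipoq was higher in POF than in WT by 0.87 log2 (adjusted p = 0.0458, limma), a call lost without any array but POF replicate 2 (0.0533 to 0.228); the change was 0.57 without POF replicate 3 and 0.35 without background correction. It was lower in SSCTR than in POF (log2 -0.96, adjusted p = 0.0297, limma), a call lost without either SSCTR array and without POF replicate 3 (0.0768 to 0.177), where the change without POF replicate 3 was -0.66 and that without background correction -0.38. The 5 spermatid markers had 1 gene that entered, Ldhc, and summed to 48.7 to 55.3 in WT, 61.3 to 63.5 in SSCTR and 52.9 to 54.6 in POF.

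**Figure D4:**
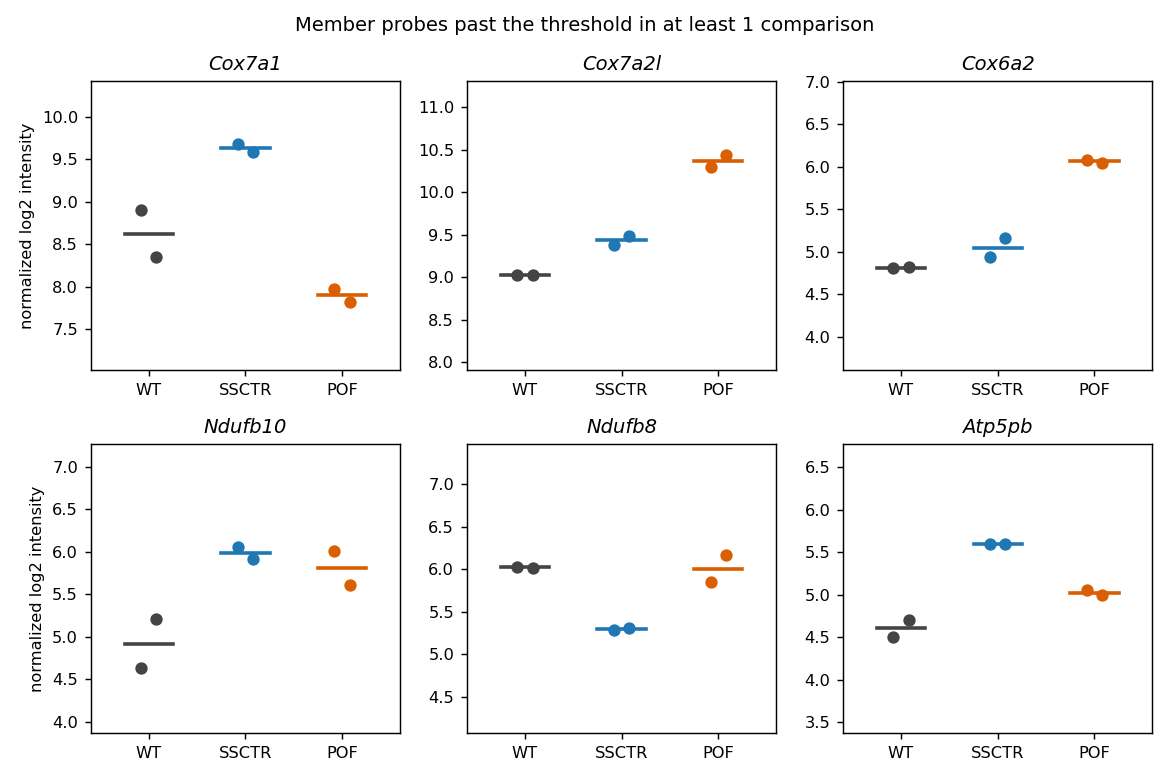
Normalized log2 intensity (vertical axis) of the 6 member probes past the threshold in at least 1 comparison, with points for single arrays and bars for the mean of the 2 arrays in each group. Cox7a2l and Cox6a2 are highest in POF and Cox7a1 in SSCTR, while the Ndufb10, Ndufb8 and Atp5pb probes lie at 6.16 or lower on every array.

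No other complex IV probe passed in any comparison as reported. Cox5a, a subunit encoded in the nucleus, read 10.88 and 10.98 in WT, 11.04 and 11.31 in SSCTR, and 10.45 and 10.63 in POF. Its groups did not overlap, but neither the change of -0.39 (SE 0.19, adjusted p = 0.238, limma) from WT to POF nor that of 0.64 (SE 0.19, adjusted p = 0.0655, limma) from POF to SSCTR passed; the second passed with the trended prior (limma's adjusted p = 0.00217) and also without background correction. Cox4i1, which is needed to assemble the complex, changed by 0.07 (SE 0.20) from WT to POF, and the 2 Cox5b probes changed by -0.34 and -0.40, with both POF arrays below both WT arrays. Of the testis isoforms, Cox8c was above background on no array and Cox7b2 on 1. A Cox6b2 probe read 5.85 and 6.33 in WT, 6.23 and 6.02 in SSCTR, and 6.60 and 6.50 in POF, a change of 0.46 (SE 0.21) from WT to POF that did not pass (adjusted p = 0.226, limma). Cox8b and Cox4i2, the lung isoform of subunit IV, had probes above background on 5 and 2 arrays.

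Complex I gave calls in 2 genes with several probes, and in each 1 probe passed. Of its 47 tested probes, 1 was called higher in POF than in WT, beside 5.68% of all tested probes. Another was called lower in SSCTR than in POF, beside 5.98%. Ndufb10 and Ndufb8 encode accessory subunits of the membrane arm. One Ndufb10 probe (ILMN_2691261) read 4.63 and 5.21 in WT, 6.06 and 5.91 in SSCTR, and 6.01 and 5.61 in POF, above background on 1 of 2 WT arrays and on all others. It was 1.85-fold higher in POF than in WT (log2 0.89, SE 0.24, adjusted p = 0.0494, limma), but the other probe (ILMN_2900216) went the other way, by -0.69 (SE 0.22, adjusted p = 0.0933, limma). Without background correction the first change was 0.31. Its call was lost in 9 of 15 alternatives, among them without any array but WT replicate 3, at limma's adjusted p from 0.058 to 0.26. The 2 probes thus moved in opposite directions.

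One Ndufb8 probe (ILMN_2501071) read 6.03 and 6.02 in WT, 5.28 and 5.31 in SSCTR, and 5.85 and 6.16 in POF, and was lower in SSCTR than in POF by 0.71 log2 (log2 -0.71, SE 0.19, adjusted p = 0.0417, limma). Both SSCTR arrays lay below the other 4. The second probe (ILMN_2621966) changed in the same direction by -0.30 (SE 0.18) without passing (adjusted p = 0.345, limma). Without background correction the first change was -0.28, and its call was lost in 11 of 15 alternatives, among them without each of the 6 arrays in turn, with adjusted p from 0.0629 to 0.214.

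Among the measured core subunits of complex I, Ndufv2, which carries an iron-sulphur centre, had the largest difference below WT in POF. It read 11.57 and 11.43 in WT, 11.43 and 11.51 in SSCTR, and 11.05 and 10.95 in POF, a change of -0.50 (SE 0.18) that did not pass (adjusted p = 0.117, limma) and that passed with the trended prior (adjusted p = 0.00725). Both POF arrays lay below the other 4. Ndufs7 changed by -0.37 (SE 0.19), Ndufs8 by -0.002 (SE 0.22), Ndufs3 by 0.05 (SE 0.18) and Ndufv1, the subunit that binds NADH, by 0.16 (SE 0.19), and none passed. Ndufs4, an accessory subunit whose loss causes a Leigh-like disease in mice, had 4 probes above background on all arrays, with changes from -0.76 to -0.02 between WT and POF. The probe with the largest fall read 9.02 and 9.32 in WT, 9.24 and 9.02 in SSCTR, and 8.21 and 8.62 in POF. Its difference of -0.76 (SE 0.21, adjusted p = 0.0588, limma) from WT and of 0.72 (SE 0.21, adjusted p = 0.0674, limma) between POF and SSCTR missed the threshold.

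Complex II, succinate dehydrogenase, has 4 subunits, all encoded in the nucleus, and is also an enzyme of the citric acid cycle. Sdhc, a membrane anchor, read 9.54 and 9.42 in WT, 9.51 and 9.85 in SSCTR, and 9.06 and 8.87 in POF. Both POF arrays lay below the other 4, but the changes of -0.51 (SE 0.20, adjusted p = 0.144, limma) in POF against WT and of 0.71 (SE 0.20, adjusted p = 0.0511, limma) in SSCTR against POF did not pass. Sdhb, the iron-sulphur subunit, had 2 probes above background on all arrays, which changed by -0.38 (SE 0.21) and -0.61 (SE 0.22) from WT to POF. Sdha, the flavoprotein, went the other way, at 11.02 and 10.97 in WT, 11.20 and 11.24 in SSCTR, and 11.21 and 11.25 in POF. Its change of 0.23 (SE 0.17) did not pass (adjusted p = 0.45, limma). The Sdhd probe was above background on 3 of 6 arrays.

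In complex III, the cytochrome bc1 complex, none of the 7 tested probes passed in any comparison. Uqcr11, a small accessory subunit, read 11.89 and 11.82 in WT, 11.72 and 11.95 in SSCTR, and 11.34 and 11.41 in POF. Both POF arrays lay below the other 4, at a change of -0.48 (SE 0.18, adjusted p = 0.135, limma) from WT. The core proteins Uqcrc1 and Uqcrc2 changed by -0.27 (SE 0.18) and 0.03 (SE 0.17).

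Complex V gave 1 call among 23 tested probes, higher in SSCTR than in WT, where 1.29% of all tested probes were called higher. A probe of Atp5pb (ILMN_2584887), which encodes subunit b of the peripheral stalk, read 4.51 and 4.71 in WT, 5.59 and 5.59 in SSCTR, and 5.06 and 4.99 in POF, and was not above background on either WT array. SSCTR was at least 1.82-fold higher than WT (means 5.59 and 4.61, adjusted p = 0.0227, limma), where the WT level is bounded by the lowest signal above background on each array. Without background correction the change was 0.33, and the call was lost in 6 of 14 alternatives, among them without either WT or either SSCTR array, at limma's adjusted p from 0.0849 to 0.162. Of the Atp5pb probes above background on all arrays, ILMN_1249817 changed by -0.25 (SE 0.21) and ILMN_2790486 by -0.05 (SE 0.21) from WT to SSCTR.

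Of the catalytic subunits, Atp5b, the beta subunit, read 14.56 and 14.62 in WT, 14.46 and 14.56 in SSCTR, and 14.37 and 14.39 in POF, a change of -0.21 (SE 0.17) from WT to POF. Atp5c1, the gamma subunit of the rotor, changed by 0.18 (SE 0.17). Atp5o, the subunit that confers oligomycin sensitivity, read 12.21 and 12.10 in WT, 12.06 and 12.30 in SSCTR, and 11.37 and 11.79 in POF. Its change of -0.58 (SE 0.21, adjusted p = 0.119, limma) did not pass, and its second probe changed by -0.49. The genes Atp5g2 and Atp5g3, which encode the same mature c subunit of the membrane ring, changed by 0.32 (SE 0.20) and 0.27 (SE 0.17), also without passing.

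Other mitochondrial genes gave medians close to those of the subunits. Over probes above background on all arrays, the median change in POF against WT was -0.15 for 47 probes of assembly factors, -0.19 for 9 probes of cytochrome c and other components, -0.12 for 19 probes of biogenesis regulators, -0.14 for 20 probes of the citric acid cycle and pyruvate entry, and -0.22 for 12 probes of carriers and channels. None of the 13 subunits encoded in mitochondrial DNA had a probe with its symbol. Of the 125 probes of these lists that were tested, 2 were lower and 1 higher in POF than in WT, beside 3.84% and 5.68% of all tested probes. Ndufaf5, a complex I assembly factor, was lower by 0.87 log2 (log2 -0.87, SE 0.20, adjusted p = 0.0246, limma). Fh1, fumarate hydratase, was also lower (log2 -0.83, SE 0.19, adjusted p = 0.0248, limma). A probe of Pdhb, a subunit of pyruvate dehydrogenase, was higher (log2 0.84, SE 0.19, adjusted p = 0.027, limma), while the second Pdhb probe changed by -0.19 (SE 0.33). All 3 calls were lost without any 1 of the 4 arrays compared, at limma's adjusted p from 0.0508 to 0.169.

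In SSCTR against POF, 4 of the 125 probes passed and all were lower in SSCTR, beside 5.98% lower and 4.12% higher over all tested probes. They belonged to Cox18, which inserts a complex IV subunit into the membrane (log2 -1.06, SE 0.18, adjusted p = 0.00637, limma), to Atpif1, the inhibitor of ATP synthase (log2 -0.86, adjusted p = 0.0268, limma), to Coa4, a complex IV assembly factor (log2 -0.83, adjusted p = 0.0397, limma) and to the same Pdhb probe (log2 -0.74, adjusted p = 0.041, limma). Both Cox18 and Atpif1 have a second probe, which changed by 0.13 (SE 0.18) and 0.03 (SE 0.20). The Cox18 call was lost without POF replicate 3 (limma's adjusted p = 0.0622), and the other 3 without any 1 of the 4 arrays compared (0.0598 to 0.2). Without background correction Atpif1, Coa4 and Pdhb changed by -0.40, -0.53 and -0.41 here, and the Pdhb change from WT to POF was 0.45. None of these lists had a probe past the threshold in SSCTR against WT, where limma gave 12 of 125 probes at an unadjusted p under 0.05, beside 16.4% of all tested probes.

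**Figure D5:**
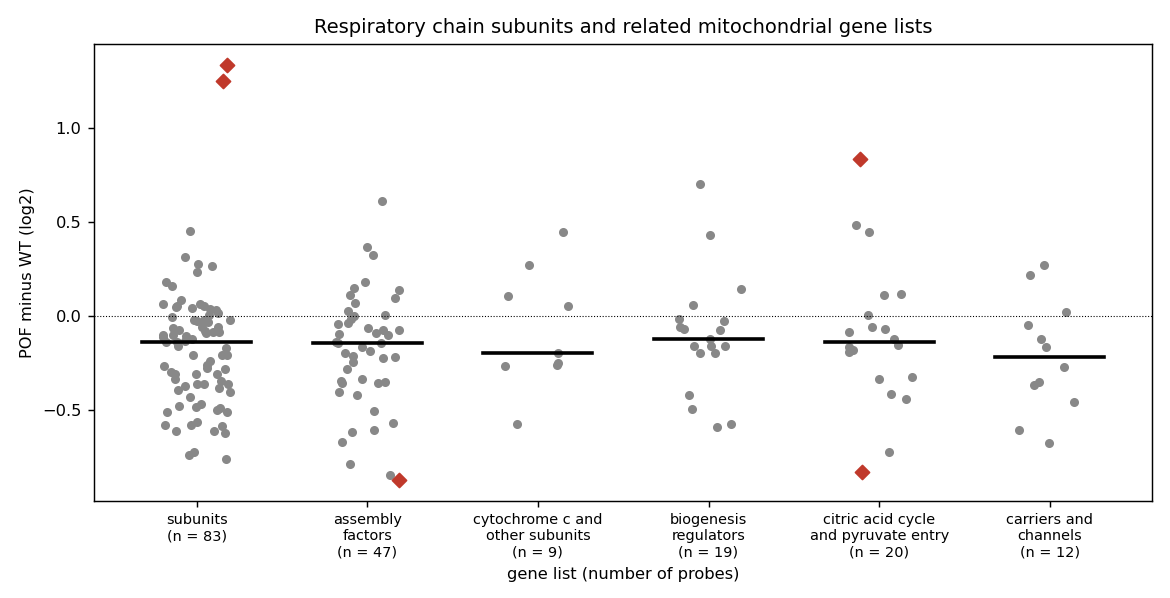
Change from WT to POF in log2 (vertical axis) of probes above background on all 6 arrays, for the respiratory chain and ATP synthase subunits and 5 related gene lists (horizontal axis), with bars at the median and red diamonds for probes past an adjusted p of 0.05. The medians lie between -0.22 and -0.12 in all 6 lists.

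The start regions of the members differ in the motifs they hold. RefSeq promoter windows on GRCm38.p6, from 250 bases before to 50 after a start, were found for 64 of the 78 symbols, in 69 windows. Searched on both strands, the motif of NRF1, a regulator of respiratory genes (GCGCA, any base, then GCGC), was in 24.6% of member windows and in 4.6% of all 32851 windows. CCGGAAG, bound by ETS factors such as GABPA, was in 23.2% and 8.86%, and AAGATGGCG, bound by YY1, in 10.1% and 1.4%. CCAAT was in 42% and 37.4%, and TATAAA in 13% and 13.6%. The median CpG count in the 250 bases before the start was 14 in members and 6 in all windows, and motifs rich in CpG are met more often in such sequence.

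Of the called complex IV genes, Cox7a1, which was highest in SSCTR, and Cox7a2l, which was highest in POF, are shown beside the widely expressed Cox7a2 and Cox6a1, which passed in no comparison as reported; Cox6a2 is named only. Each line gives the 250 bases before the start, 5' to 3' on the gene's strand, with motif letters in capitals on either strand. Cox7a1 is at chr7:30183921-30184170 on the plus strand, Cox7a2 at chr9:79759854-79760103, Cox7a2l at chr17:83514334-83514583 and Cox6a1 at chr5:115348959-115349208, these 3 on the minus strand.
Cox7a1: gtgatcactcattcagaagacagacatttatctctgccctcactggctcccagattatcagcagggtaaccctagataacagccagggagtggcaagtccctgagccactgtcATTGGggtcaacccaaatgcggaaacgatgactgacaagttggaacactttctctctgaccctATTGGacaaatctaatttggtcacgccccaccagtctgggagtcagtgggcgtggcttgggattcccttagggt
Cox7a2: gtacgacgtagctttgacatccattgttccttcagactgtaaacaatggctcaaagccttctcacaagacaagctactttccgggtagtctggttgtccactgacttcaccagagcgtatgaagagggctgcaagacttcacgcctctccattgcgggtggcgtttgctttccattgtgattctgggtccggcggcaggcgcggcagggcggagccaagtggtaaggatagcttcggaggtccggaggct
Cox7a2l: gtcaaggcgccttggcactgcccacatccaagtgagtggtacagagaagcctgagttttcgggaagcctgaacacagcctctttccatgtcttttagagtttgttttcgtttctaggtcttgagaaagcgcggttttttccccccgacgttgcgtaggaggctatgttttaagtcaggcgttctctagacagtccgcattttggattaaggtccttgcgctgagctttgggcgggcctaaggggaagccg
Cox6a1: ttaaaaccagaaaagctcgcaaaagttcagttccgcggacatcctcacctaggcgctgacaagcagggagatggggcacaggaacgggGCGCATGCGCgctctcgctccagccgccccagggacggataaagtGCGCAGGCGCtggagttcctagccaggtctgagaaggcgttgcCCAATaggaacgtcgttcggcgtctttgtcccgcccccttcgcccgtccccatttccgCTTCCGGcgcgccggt
Cox7a1 holds CCAAT on the reverse strand 137 and 74 bases before the start, and none of the other motifs. Cox6a1 holds the NRF1 motif at 162 and 117 bases, CCAAT at 74 and the ETS motif at 16. Neither Cox7a2 nor Cox7a2l holds any of the 5 motifs in this window, which says only that these letters are not there.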

How the data were processed

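Per the submitters' processing notes GenomeStudio was used; its version and the chip are not given in the sources used here. The authors deposited a table of signals, per the file headers and the values intensities on a linear scale with a detection p-value for each probe, and a table of normalized intensities. Sorted intensities of the 6 arrays used differ by at most 0.542%, so they already shared 1 distribution. The replicate 1 columns as deposited are averages of the other 2 columns of their group multiplied by 6, 14 or 8 distinct factors in WT, SSCTR and POF (at 4 decimals, at least 20 probes each); their deposited detection column reaches 1.13, so it is a score and no p-value, and they were left out.

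From the intensities, neqc of limma 3.58.1 in R 4.3.3 took the background from the detection p-values, added an offset of 16, normalized by quantiles and took log2. Probes with detection p under 0.05 on at least 2 of 6 arrays entered, 19394 of 45281. The 3 groups were fitted in 1 limma model (prior degrees of freedom 6.13, residual 3), two-sided, with Benjamini-Hochberg adjustment over all probes; adjusted p-values and SE are limma's. The number of arrays limits the precision. Same-numbered replicates did not deviate together (r = -0.0188, -0.0599 and -0.00459 across probes, which are not independent), so samples were treated as unpaired. Symbols came from the platform annotation, updated through Entrez identifiers to RefSeq. The fit was tested on simulated data.

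Members and lists were chosen with earlier results of these data known. Named probes passed the threshold or were extreme within their complex. Others belong to a list of core and other main subunits, to isoform genes or to genes with a called probe. Alternatives varied the background correction, normalization, scaling, probe filter, probes per gene, columns, variance prior, replicate block and arrays left out.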

Additional observations from a re-analysis of the deposited data

How the results depend on the processing

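The count of member probes past the threshold moved with the processing, while the medians kept their direction in POF against WT (-0.21 to -0.12) and in SSCTR against POF (0.14 to 0.21) under every alternative run and lay between -0.01 and 0.03 in SSCTR against WT. The counts over all tested probes moved too and stand in parentheses. In POF against WT, 3 as reported (1847), the count was 15 (2568) with an offset of 50, 19 (2661) without background correction, 18 (2661) from the authors' normalized table, 7 of 81 members (1794) with detection p under 0.01 on all arrays, 34 (6306) with all 9 columns and 20 (2624) with the trended prior. In SSCTR against POF, 4 as reported (1959), the same settings gave 14 (2523), 17 (2548), 17 (2543), 9 (1742), 36 (6343) and 17 (2641). In SSCTR against WT, 2 as reported (474), the count was 1 (976) without background correction, 1 (972) from the authors' table, 1 (297) without the probe filter and 11 (3922) with all 9 columns. The 9 columns count each pair of arrays again through replicate 1, which shrinks the spread by construction; for the other settings the cause was not tested. Leaving out 1 array gave 2 to 4 in POF against WT (525 to 1771), 1 to 3 in SSCTR against POF (719 to 1760; 1 without SSCTR replicate 2 and without POF replicate 3, 2 without POF replicate 2) and 0 to 1 in SSCTR against WT (126 to 332; 0 without either WT or either SSCTR replicate). With the replicate block, the counts were 2 (1580), 3 (1735) and 1 (370). Of 2718 values of named probes under alternatives, 2502 kept their side of the threshold with no called value changing sign, 80 lost the threshold, 136 gained it and 0 called values reversed. With 2 arrays a group, a missed threshold does not show equal levels.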
